A study of Mus musculus with 6 samples.

Results

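The mitochondrial SLC25 carriers are transport proteins, most of which move metabolites across the inner mitochondrial membrane. Their genes were compared between MICT1 KO and Scr cells that had been put through brown adipocyte differentiation. Members were all rows of the expression table whose symbol is Slc25a followed by a number, leaving out Slc25a20, which is not analysed here. The rule found 38 genes among the 13283 of the table. Of the 46 genes that the GENCODE annotation holds under such symbols, the other 8 (Slc25a18, Slc25a21, Slc25a31, Slc25a35, Slc25a41, Slc25a43, Slc25a48 and Slc25a54) are not analysed here. Not every member sits in the inner membrane, since Slc25a17 is a peroxisomal carrier and Slc25a46 a protein of the outer mitochondrial membrane.

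All cells belong to a line of immortalized brown preadipocytes of the mouse (BAT cells) that stably expresses Cas9. The 3 MICT1 KO libraries were made from CRISPR knockout pools, labelled MICT1-CRISPR KO, and the 3 Scr libraries from control cells that received a scrambled sgRNA and are labelled WT. Cells of both groups were put through brown adipocyte differentiation and then given forskolin, an activator of adenylyl cyclase that raises cAMP, at 10 µM for 6 h on day 6. The labels do not tell which of the sgRNAs made a given MICT1 KO library, and with cultures of a single line the replicate error covers these cultures only. MICT1 itself is not analysed here, so the label of the MICT1 KO libraries was not checked on the targeted gene.

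The inner mitochondrial membrane is nearly impermeable, so ADP, ATP, phosphate, carboxylic acids, amino acids, cofactors and iron cross it through carriers of this family. The carriers are encoded in the nucleus and built of repeated pairs of membrane helices, and those of the inner membrane are brought there through the TOM and TIM22 import machinery. In brown fat the best known member is the uncoupling protein Ucp1, which lets protons return without ATP synthesis. Others feed the substrates of respiration, export citrate for fatty acid synthesis, or bring in the cofactors of mitochondrial enzymes.

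Values are the authors' normalized signal per gene, read as estimated reads divided by a size factor per library. Their sums correspond to an approximate 15437380 to 17917646 reads per library, estimated for the genes of the table only. A log2 fold change is MICT1 KO minus Scr on the log2(value + 1) scale, and is given with its standard error (SE). The p-values come from limma-trend, with Benjamini-Hochberg adjustment across the 12507 genes that reached 10 in 3 or more libraries. Levels of different genes are compared as RPKM, that is, per length of annotated exons. The cells were measured in bulk, so fewer cells of a type and less RNA per cell cannot be told apart. In the Scr libraries the adipocyte genes Fabp4, at 53343 ± 4093 (SD, n = 3), and Adipoq, at 624 ± 139 (SD, n = 3), were well detected, while the value of Ucp1 was only 25.1 ± 4.96 (SD, n = 3). All 7 adipocyte markers were lower in MICT1 KO libraries (median log2 fold change -3.70), where 28.3% of all genes were lower. Their summed value was 71326 to 83939 in Scr and 5645 to 9555 in MICT1 KO libraries. In the latter Fabp4 stood at 5461 ± 1571 and Adipoq at 5.32 ± 2.24 (SD, n = 3). The study also reports lower adipogenic genes in the CRISPR knockout cells, and calls an effect of the deletion on differentiation in culture plausible. By contrast, it found adipogenic genes unchanged after knockdown of MICT1 in cells already differentiated. In brown fat of mice with MICT1 ablated in Ucp1-positive cells it found no significant difference in them. The part of the 7 adipocyte markers in the carrier results was not tested.

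Of the 38 carrier genes, 37 passed the filter on low values, and Slc25a2, an ornithine carrier gene at 2.04 to 4.63 in Scr and 1.91 to 9.33 in MICT1 KO libraries, did not. By limma-trend with an adjusted p under 0.05, 12 of the 37 were lower and 6 were higher in MICT1 KO cells, and 19 did not pass. The share called (48.6%) was below the 56.9% of all genes tested. The lower calls made up 32.4% of the carriers against 28.3% of all genes, and the higher calls 16.2% against 28.5%. The median log2 fold change was -0.04, beside -0.0053 over all genes, and the members spread from -3.28 (Slc25a34) to 0.91 (Slc25a27). At least 2-fold lower were 6 carriers, namely Slc25a34, Slc25a23, Slc25a1, Slc25a10, Slc25a51 and Slc25a22 (background 5.76%), and 0 were at least 2-fold higher (background 7.99%). The criteria of the study's methods include a 1.8-fold difference with a p under 0.05 and a maximum of at least 4 RPKM. They were applied with the unadjusted p of limma-trend and the RPKM used here, not with the study's own test and RPKM. In that form 4 carriers met them (background 8.84%), the lower genes Slc25a1, Slc25a10, Slc25a22 and Slc25a51.

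**Figure D1:**
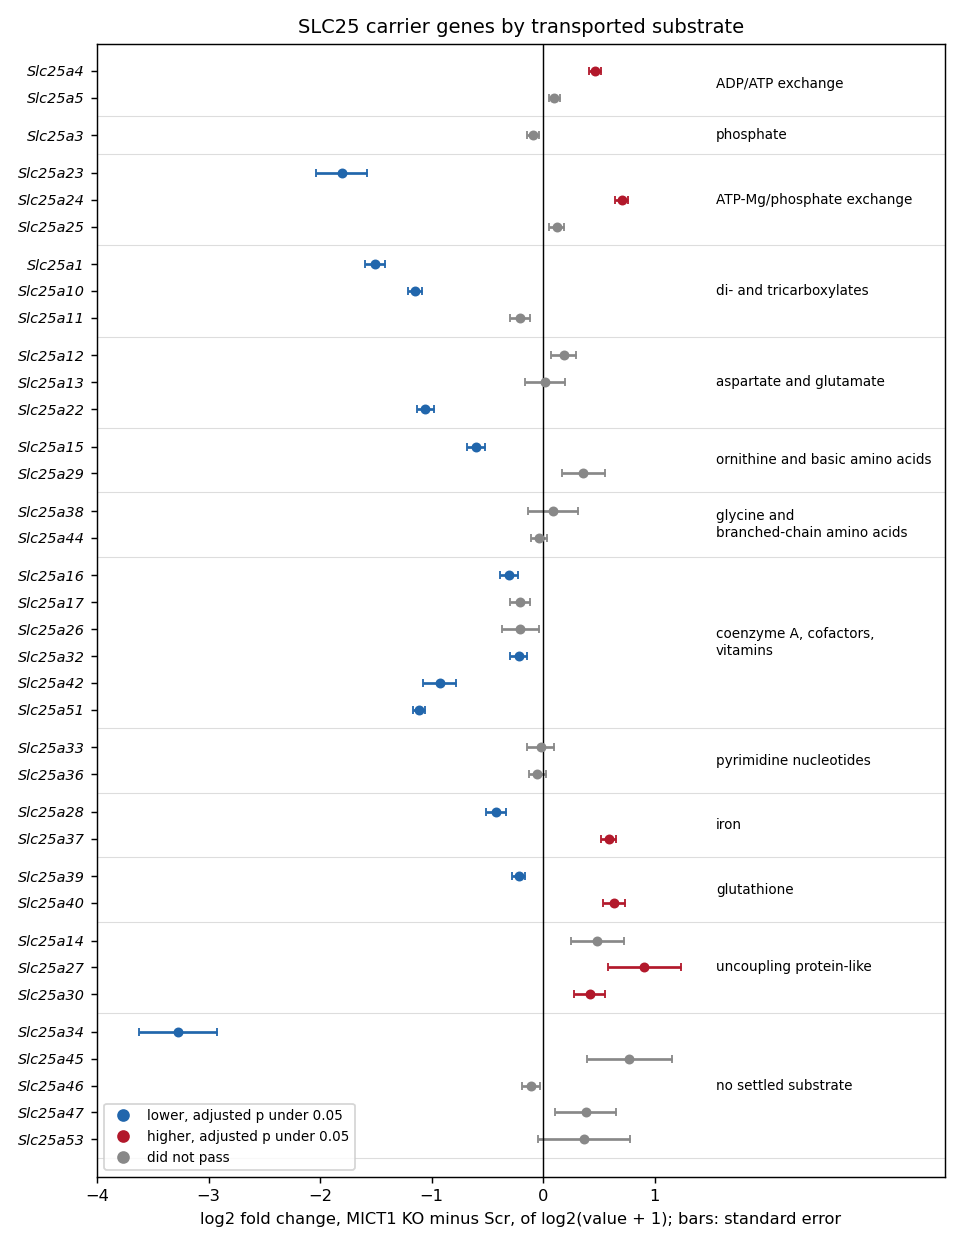
Log2 fold change (MICT1 KO minus Scr) of 36 of the 37 tested carrier genes, grouped by transported substrate, with bars of 1 standard error and colour for the call at an adjusted p under 0.05 (limma-trend). The falls of Slc25a34 (-3.28), Slc25a23 (-1.81), Slc25a1 (-1.51), Slc25a10 (-1.15), Slc25a51 (-1.12) and Slc25a22 (-1.06) stand to the left, and no carrier reaches 1 to the right.

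The promoters of 5 carriers are printed so that the falling and rising genes can be read side by side. Slc25a34 has the largest fall, Slc25a1 and Slc25a10 carry related carboxylates and fell together, and Slc25a4 is the most abundant carrier that rose. Slc25a25 did not pass but holds a complete cAMP response element (CRE) in the window printed. Its windows at other starts, which are not printed, hold no CRE. Each runs 5′ to 3′ on the strand of the gene, from 250 bases before to 50 bases after a RefSeq transcription start on GRCm38.p6. Capitals mark the CRE core TGACG, the complete palindromic CRE TGACGTCA, which contains that core on both strands, or AAGGTCA, the core that estrogen-related receptors and other nuclear receptors bind, on either strand.
Slc25a34 (chr4:141623785-141624084, minus strand): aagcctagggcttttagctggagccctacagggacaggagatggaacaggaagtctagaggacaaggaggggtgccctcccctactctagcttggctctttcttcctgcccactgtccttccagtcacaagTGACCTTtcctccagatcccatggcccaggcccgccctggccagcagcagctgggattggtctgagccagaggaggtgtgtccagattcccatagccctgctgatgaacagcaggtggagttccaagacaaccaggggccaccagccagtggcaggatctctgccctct
Slc25a1 (chr16:17928170-17928469, minus strand): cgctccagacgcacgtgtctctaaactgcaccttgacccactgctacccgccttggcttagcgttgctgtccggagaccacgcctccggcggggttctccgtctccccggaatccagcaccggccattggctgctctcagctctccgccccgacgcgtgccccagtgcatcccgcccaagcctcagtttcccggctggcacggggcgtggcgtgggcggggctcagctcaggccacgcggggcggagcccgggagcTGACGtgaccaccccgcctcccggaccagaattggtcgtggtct
Slc25a10 (chr11:120491587-120491886, plus strand): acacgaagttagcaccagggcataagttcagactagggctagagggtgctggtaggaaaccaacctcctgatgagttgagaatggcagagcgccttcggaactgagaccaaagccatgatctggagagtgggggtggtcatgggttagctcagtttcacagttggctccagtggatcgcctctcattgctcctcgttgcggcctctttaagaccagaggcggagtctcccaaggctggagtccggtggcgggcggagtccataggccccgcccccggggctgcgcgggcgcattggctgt
Slc25a4 (chr8:46211013-46211312, minus strand): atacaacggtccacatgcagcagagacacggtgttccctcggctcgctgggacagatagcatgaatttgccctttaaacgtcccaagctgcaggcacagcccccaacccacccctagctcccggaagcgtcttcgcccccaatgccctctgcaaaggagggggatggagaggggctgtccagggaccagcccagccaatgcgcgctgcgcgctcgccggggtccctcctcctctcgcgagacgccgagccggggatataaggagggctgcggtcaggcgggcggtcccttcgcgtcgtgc
Slc25a25 (chr2:32424017-32424316, minus strand): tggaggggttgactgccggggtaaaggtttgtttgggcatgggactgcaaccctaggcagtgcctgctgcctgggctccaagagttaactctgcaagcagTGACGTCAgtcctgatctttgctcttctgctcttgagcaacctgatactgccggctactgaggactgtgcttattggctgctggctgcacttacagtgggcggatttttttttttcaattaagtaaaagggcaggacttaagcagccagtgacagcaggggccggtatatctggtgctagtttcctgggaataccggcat
In the Slc25a34 window the capitals are AAGGTCA read on the other strand, in that of Slc25a1 the CRE core just after the start, and in that of Slc25a25 the complete CRE. The windows of Slc25a10 and Slc25a4 hold none of these letters.

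A promoter window was found for 29 of the carriers, in 38 windows. The search of the carriers left out chromosome 18, where Slc25a2 and Slc25a46 lie. The CRE core lay in 12 of them (31.6%), beside 20.8% of all 32851 windows of this length. By gene it was found in 3 of 10 lower carriers (Slc25a1, Slc25a16 and Slc25a28), 1 of 4 higher carriers (Slc25a40) and 7 of 15 that did not pass. The complete CRE was found for Slc25a25 and Slc25a36, neither of which passed, against 1.8% of all windows. Slc25a3 held the CRE core 4 times in its window, more than any other carrier with a window, and did not pass either. AAGGTCA was found for Slc25a34 alone among the carriers with a window (4.7% of all windows), and GCGCATG, the core of the binding site of the mitochondrial biogenesis factor Nrf1, in 0 carrier windows (3.9% of all windows). These matches describe letters and not binding.

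Per length, a few carriers made up most of the family's RNA. Slc25a5, which encodes the adenine nucleotide translocase Ant2, was the highest, at 305 ± 6.33 RPKM in Scr and 328 ± 15.3 in MICT1 KO libraries (SD, n = 3). The phosphate carrier gene Slc25a3 (108 ± 0.599 RPKM) came next in Scr, followed by Slc25a4, the gene of Ant1 (99.6 ± 4.18 RPKM). In MICT1 KO libraries that order was turned, with Slc25a4 at 138 ± 5.0 and Slc25a3 at 102 ± 5.21 RPKM. Slc25a39 was at 54.1 ± 0.677 RPKM in Scr and no other carrier was above 50 RPKM there. The neighbours Slc25a10 (47.8 ± 3.38 RPKM) and Slc25a51 (47.5 ± 1.48 RPKM) did not differ beyond their spread in Scr. In MICT1 KO libraries both were near 22 RPKM, at 21.6 ± 0.743 and 22.0 ± 0.471. At the other end, Slc25a2, Slc25a53, Slc25a27, Slc25a45 and Slc25a47 were each under 1 RPKM in Scr. The length is that of all annotated exons, which lowers the RPKM of genes with long or rarely used exons, as for the 5550 bases of Slc25a3.

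**Figure D2:**
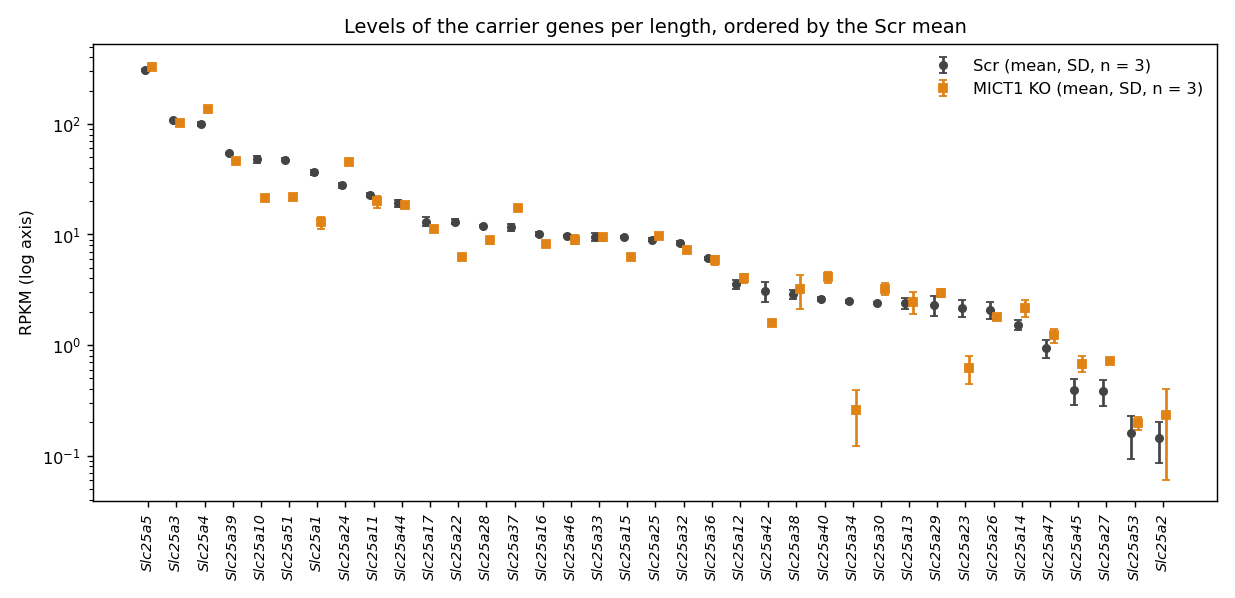
RPKM of 37 of the 38 carrier genes on a log axis, ordered by the Scr mean, with circles for Scr and squares for MICT1 KO (mean and SD, n = 3 libraries each). Slc25a5 is highest in both groups (305 and 328 RPKM), and the largest gaps between the groups are those of Slc25a34 (2.48 and 0.256 RPKM) and Slc25a23 (2.16 and 0.623 RPKM).

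The ADP/ATP carriers exchange cytosolic ADP for ATP made in the matrix, and can also let protons leak in the presence of fatty acids. Slc25a4 (chromosome 8, 46207168 to 46211062, GRCm38) had values of 3765, 3736 and 4006 in Scr cells compared with 5518, 5082 and 5246 in MICT1 KO cells. It rose with a log2 fold change of 0.46 (SE 0.055, adjusted p = 4.09e-07 from limma-trend), without overlap of the groups. Slc25a5 (chromosome X, 36795597 to 36798808) had values of 8147, 8136 and 8342 in Scr cells compared with 8889, 8369 and 9171 in MICT1 KO cells. All its MICT1 KO values were above the Scr values, but with a log2 fold change of 0.10 (SE 0.052, adjusted p = 0.107 from limma-trend) it did not pass, except without MICT1 KO replicate 2 (0.14, adjusted p = 0.0457). As RPKM, the ratio of Slc25a4 to Slc25a5 was 0.323, 0.321 and 0.336 in Scr cells compared with 0.434, 0.425 and 0.400 in MICT1 KO cells. GENCODE also holds a pseudogene, Slc25a5-ps, and how reads shared with such copies were counted is not given in the sources used here, so the level of Slc25a5 is uncertain in that respect.

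The phosphate carrier supplies the phosphate that ATP synthase joins to ADP. Slc25a3 (chromosome 10, 91116574 to 91124046) had values of 9724, 10016 and 9793 in Scr cells compared with 9835, 8878 and 8962 in MICT1 KO cells, and the groups overlapped through MICT1 KO replicate 1. Its log2 fold change was -0.10 (SE 0.054, adjusted p = 0.139 from limma-trend, 95% interval from -0.21 to 0.02). Without MICT1 KO replicate 1 it was -0.14 with an adjusted p of 0.0256.

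The di- and tricarboxylate carriers connect the citric acid cycle with the cytosol, and 2 of 3 were lower, beside 28.3% of all genes. Slc25a1, the citrate carrier whose export of citrate supplies acetyl units for fatty acid synthesis, lies on chromosome 16 from 17925211 to 17928219. Its values were 1323, 1249.6 and 1301 in Scr cells compared with 392, 491 and 484 in MICT1 KO cells, 2.83-fold lower on average (log2 fold change -1.51, SE 0.09, adjusted p = 7.77e-12 from limma-trend). Slc25a10 (chromosome 11, 120491837 to 120501161), which exchanges malate and succinate for phosphate, had values of 2762, 2521 and 2825 in Scr cells compared with 1271, 1200.1 and 1175 in MICT1 KO cells. That fall was 2.22-fold (log2 fold change -1.15, SE 0.065, adjusted p = 3.04e-12 from limma-trend). Each of these 2 genes was lower in every MICT1 KO library than in any Scr library by a wide margin, as the plot of paralogs shows. Slc25a11, which exchanges 2-oxoglutarate for malate in the malate-aspartate shuttle, had values of 797, 758 and 819 in Scr cells compared with 763, 596 and 708 in MICT1 KO cells. These overlapped slightly, and its log2 fold change of -0.21 (SE 0.091, adjusted p = 0.0588 from limma-trend) did not pass. It passed without MICT1 KO replicate 1 (-0.28, adjusted p = 0.0143). The RPKM ratio of Slc25a11 to Slc25a10 went from 0.478 ± 0.0108 in Scr to 0.923 ± 0.0981 in MICT1 KO libraries (SD, n = 3).

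Among the aspartate and glutamate carriers only the glutamate carrier passed. Slc25a22 (chromosome 7, 141429749 to 141437874), which brings glutamate into the matrix together with a proton, had values of 1222, 1277 and 1351 in Scr cells compared with 632, 630.1 and 588 in MICT1 KO cells. It was 2.08-fold lower (log2 fold change -1.06, SE 0.076, adjusted p = 1.75e-10 from limma-trend). The aspartate/glutamate exchangers of the malate-aspartate shuttle did not pass. Slc25a12 (aralar) was at 371, 451 and 459 in Scr cells compared with 522, 434 and 497 in MICT1 KO cells (log2 fold change 0.18, 95% interval from -0.04 to 0.41). Slc25a13 (citrin) was at 145, 134 and 167 in Scr cells compared with 117, 182 and 159 in MICT1 KO cells (0.02, 95% interval from -0.36 to 0.40). For both the groups overlapped. Of the shuttle's enzymes, the aspartate aminotransferase genes Got1 (log2 fold change 1.03) and Got2 (0.39) were higher and the malate dehydrogenase genes Mdh1 (-0.65) and Mdh2 (-0.16) were lower, each with an adjusted p under 0.05 by limma-trend.

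**Figure D3:**
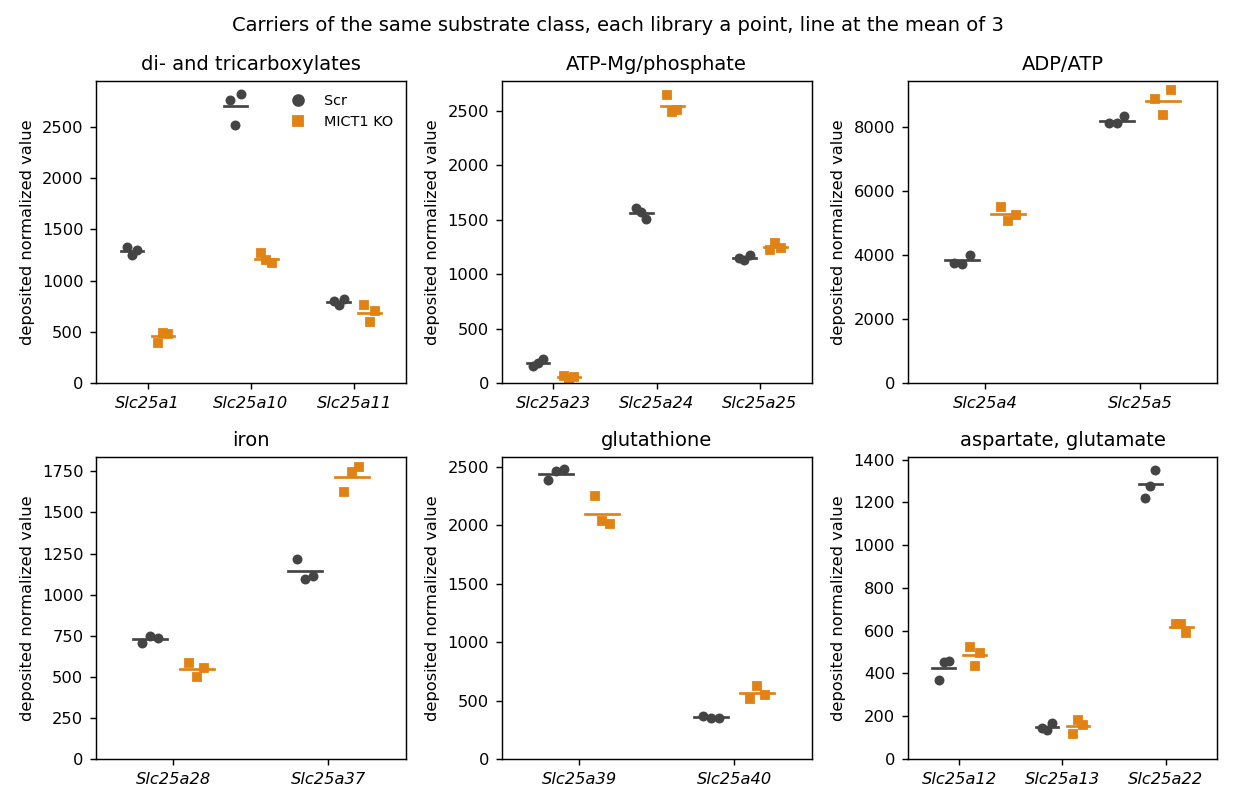
Deposited normalized values of carriers of 6 substrate classes, a point for each library (circles Scr, squares MICT1 KO) and a line at the mean of 3, with every axis from 0. Slc25a1, Slc25a10, Slc25a22, Slc25a23, Slc25a28 and Slc25a39 lie lower in MICT1 KO libraries and Slc25a4, Slc25a24, Slc25a37 and Slc25a40 higher.

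The ATP-Mg/phosphate carriers are calcium-regulated and set the size of the adenine nucleotide pool in the matrix, and their genes went in opposite directions. Slc25a24 (chromosome 3, 109123149 to 109168409) had values of 1612, 1568 and 1508 in Scr cells compared with 2645, 2489 and 2507 in MICT1 KO cells. It rose 1.63-fold (log2 fold change 0.70, SE 0.060, adjusted p = 2.77e-09 from limma-trend). Slc25a23 (chromosome 17, 57043711 to 57059909) fell 3.48-fold, with values of 154, 187 and 221 in Scr cells compared with 66.7, 36.9 and 58.0 in MICT1 KO cells (log2 fold change -1.81, SE 0.23, adjusted p = 9.30e-07 from limma-trend). Neither gene overlapped between the groups. Slc25a25 was at 1148, 1128 and 1176 in Scr cells compared with 1226, 1289 and 1238 in MICT1 KO cells, all higher than in Scr, but its log2 fold change of 0.12 (SE 0.066, adjusted p = 0.130 from limma-trend) did not pass. Per length, Slc25a24 stood 13.2 ± 2.80 times above Slc25a23 in Scr and 77.3 ± 23.4 times in MICT1 KO libraries (SD, n = 3).

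Of the carriers of ornithine and other basic amino acids, the ornithine carrier gene Slc25a15 (chromosome 8, 22375550 to 22398621) was lower. Its values were 861, 876 and 893 in Scr cells compared with 550.1, 579 and 602 in MICT1 KO cells (log2 fold change -0.60, SE 0.080, adjusted p = 1.73e-06 from limma-trend). Slc25a29, a carrier of arginine and lysine, was at 90.01, 85.3 and 122 in Scr cells compared with 114, 136 and 129 in MICT1 KO cells, which overlapped (0.36, SE 0.19, adjusted p = 0.122 from limma-trend). It passed without Scr replicate 3 (0.52, adjusted p = 0.0438). Slc25a44, which carries branched-chain amino acids into brown fat mitochondria, was at 1183, 1057 and 1106 in Scr cells compared with 1149.8, 1058 and 1056 in MICT1 KO cells. Its log2 fold change of -0.04 had a 95% interval from -0.19 to 0.12. The glycine carrier gene Slc25a38, which serves heme synthesis, was at 115, 135 and 140.4 in Scr cells compared with 186, 158 and 89.1 in MICT1 KO cells. The MICT1 KO values of Slc25a38 lay on either side of the Scr values, and its log2 fold change of 0.09 had a wide interval, from -0.37 to 0.55.

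The carriers of coenzyme A, cofactors and vitamins had 4 of 7 members lower and 0 higher, beside 28.3% and 28.5% of all genes. The share called in either direction (57.1%) was close to the 56.9% of all genes. Slc25a51 (chromosome 4, 45395923 to 45408917), the mitochondrial NAD+ carrier, had values of 4074, 4378 and 4409 in Scr cells compared with 1946, 2010.3 and 1976 in MICT1 KO cells. It was 2.17-fold lower (log2 fold change -1.12, SE 0.056, adjusted p = 5.56e-13 from limma-trend), the smallest adjusted p of any carrier. Slc25a42 (chromosome 8, 70184340 to 70212281), which exchanges coenzyme A for adenine nucleotides, had values of 359, 242 and 303 in Scr cells compared with 167, 155 and 146 in MICT1 KO cells (log2 fold change -0.93, SE 0.15, adjusted p = 2.48e-05 from limma-trend). Both genes were lower in every MICT1 KO library. Slc25a16, a carrier linked to coenzyme A, was at 795, 762 and 813 in Scr cells compared with 658, 613 and 649 in MICT1 KO cells (-0.30, SE 0.080, adjusted p = 0.00291 from limma-trend). Slc25a32, which carries folate and FAD, was at 832, 883 and 804 in Scr cells compared with 700.7, 759 and 702 in MICT1 KO cells (-0.22, SE 0.079, adjusted p = 0.0223 from limma-trend). The call for Slc25a32 was lost without Scr replicate 2 (-0.18, adjusted p = 0.106), MICT1 KO replicate 1 (-0.20, adjusted p = 0.0558) or MICT1 KO replicate 3 (-0.20, adjusted p = 0.0693). The remaining 3 carriers of this class did not pass. The peroxisomal carrier gene Slc25a17 was at 557, 603 and 672 in Scr cells compared with 525, 509 and 546 in MICT1 KO cells, all of these lower than in Scr. Its difference of -0.21 on the log2 scale missed the threshold (adjusted p = 0.0612 from limma-trend), and it passed without Scr replicate 1 (-0.27, adjusted p = 0.0314). The S-adenosylmethionine carrier gene Slc25a26 was at 196, 150.2 and 147 in Scr cells compared with 136, 146 and 141 in MICT1 KO cells (-0.20, adjusted p = 0.309 from limma-trend).

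The iron carriers, the mitoferrins, also went in opposite directions. Slc25a37 (chromosome 14, 69241848 to 69285544), the gene of mitoferrin-1, had values of 1218, 1097 and 1111 in Scr cells compared with 1623, 1748 and 1776 in MICT1 KO cells (log2 fold change 0.59, SE 0.068, adjusted p = 2.86e-07 from limma-trend). Slc25a28 (chromosome 19, 43663801 to 43675006), the gene of mitoferrin-2, had values of 704, 749 and 737 in Scr cells compared with 583, 499 and 550.4 in MICT1 KO cells (-0.42, SE 0.087, adjusted p = 3.19e-04 from limma-trend). The groups did not overlap for either gene. As RPKM the ratio of mitoferrin-1 to mitoferrin-2 was 1.08, 0.912 and 0.939 in Scr, near equal levels, and 1.73, 2.18 and 2.01 in MICT1 KO libraries.

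Glutathione, the main thiol antioxidant, is made in the cytosol and enters mitochondria through Slc25a39, of which Slc25a40 is the close relative. Slc25a39 (chromosome 11, 102402969 to 102408675) had values of 2386, 2462 and 2481 in Scr cells compared with 2251, 2035 and 2012 in MICT1 KO cells (log2 fold change -0.22, SE 0.061, adjusted p = 0.00428 from limma-trend). Slc25a40 (chromosome 5, 8422730 to 8454839) had values of 371, 354 and 354 in Scr cells compared with 513, 625 and 543 in MICT1 KO cells (0.63, SE 0.10, adjusted p = 2.02e-05 from limma-trend). The first fell and the second rose without overlap between the groups, yet per length Slc25a40 stayed at a small fraction of Slc25a39, 0.0484 ± 0.00232 in Scr and 0.0882 ± 0.013 in MICT1 KO libraries (SD, n = 3). Calls went in both directions in 3 classes (ATP-Mg/phosphate, iron and glutathione). The pairs compared as ratios, in these and in the other classes, were chosen with earlier results of these data known. All ratios are therefore given as a description.

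The uncoupling protein-like carriers had 2 of 3 genes higher, all at low levels, beside 28.5% of all genes that were higher. Slc25a30 was at 181, 177 and 181 in Scr cells compared with 209, 258 and 257 in MICT1 KO cells (log2 fold change 0.42, SE 0.14, adjusted p = 0.0159 from limma-trend). Slc25a27 was at 23.7, 31.5 and 18.3 in Scr cells compared with 47.7, 47.4 and 42.5 in MICT1 KO cells (0.91, SE 0.33, adjusted p = 0.0224 from limma-trend). Both calls depended on certain libraries. That of Slc25a30 was lost without MICT1 KO replicate 2 (0.36, adjusted p = 0.0641) or 3 (0.37, adjusted p = 0.0647), and that of Slc25a27 without Scr replicate 3 (0.72, adjusted p = 0.0858), MICT1 KO replicate 1 (0.88, adjusted p = 0.0585) or MICT1 KO replicate 2 (0.88, adjusted p = 0.0593). Slc25a14 was at 56.4, 66.7 and 53.9 in Scr cells compared with 98.2, 85.3 and 67.4 in MICT1 KO cells, above the Scr range, without passing (0.49, SE 0.24, adjusted p = 0.0850 from limma-trend). It passed without MICT1 KO replicate 3 (0.63, adjusted p = 0.0451).

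The largest fall of any carrier was that of Slc25a34, whose substrate is not settled. It lies on chromosome 4 from 141618819 to 141623891 and had values of 104, 114 and 108 in Scr cells compared with 9.53, 6.32 and 17.6 in MICT1 KO cells. It was 9.73-fold lower on average, with a log2 fold change of -3.28 (SE 0.35, adjusted p = 8.88e-08 from limma-trend), and stood at rank 73 from the lowest among 12507 genes. The Scr libraries were close together, whereas the MICT1 KO values rest on few reads. With a library left out the log2 fold change lay between -3.64 and -2.97. The other carriers without a settled substrate did not pass. Slc25a45 had MICT1 KO values of 36.2, 29.5 and 25.9, all above the 21.8, 12.98 and 18.3 of Scr (log2 fold change 0.77 with limma-trend, adjusted p = 0.0928). Slc25a46, Slc25a47 and Slc25a53 overlapped between the groups. Slc25a46 was at 821 to 879.7 in Scr and 747 to 888 in MICT1 KO libraries (-0.11), Slc25a47 at 37.1 to 52.4 and 49.5 to 65.3 (0.38), and Slc25a53 at 11.2 to 27.7 and 21.9 to 28.0 (0.37). The pyrimidine nucleotide carrier genes Slc25a33 and Slc25a36 were close to 0 in log2 fold change (-0.02 and -0.05), with 95% intervals from -0.27 to 0.23 and from -0.22 to 0.12.

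Summed per length over the 38 genes, carrier RNA came to 919, 889 and 928 RPKM in Scr and 902, 859 and 897 RPKM in MICT1 KO libraries. The totals overlapped (exact two-sided permutation test, p = 0.3, where 3 libraries against 3 cannot give less than 0.1). The composition did not stay the same. The ADP/ATP carriers took 44.3% ± 0.148 of the sum in Scr and 52.5% ± 0.881 in MICT1 KO libraries (SD, n = 3). The di- and tricarboxylate carriers went from 11.7% ± 0.415 to 6.14% ± 0.0205 and the coenzyme A and cofactor carriers from 9.48% ± 0.154 to 6.15% ± 0.198. The ATP-Mg/phosphate carriers went from 4.27% ± 0.111 to 6.30% ± 0.124. For these 4 classes the groups did not overlap, and the exact permutation p was 0.1, the smallest possible, a value that 10 of the 13 classes reached. The phosphate carrier took 11.9% ± 0.315 and 11.5% ± 0.437 (exact permutation p = 0.3). Because shares add up to a whole, a larger share of a class goes with smaller shares of the others. The size of each share also depends on the exon lengths used, 5550 bases for Slc25a3 and 1646 for Slc25a5. In mean signal not divided by length, Slc25a3 was above Slc25a5 in Scr (9844.4 against 8208.5) and in MICT1 KO libraries (9224.9 against 8809.8).

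**Figure D4:**
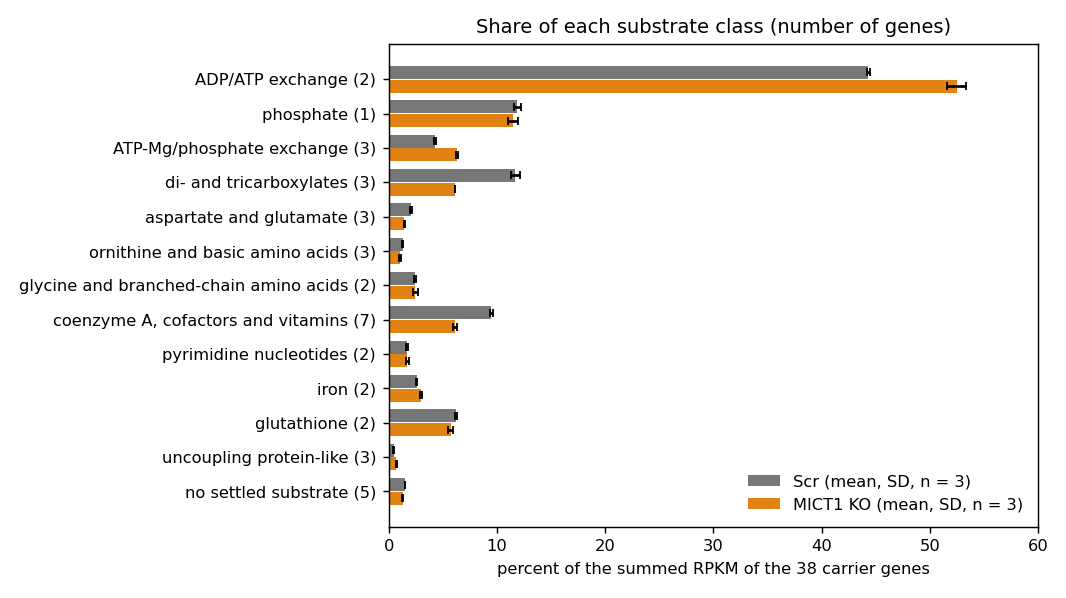
Share of each of 13 substrate classes in the summed RPKM of the 38 carrier genes (bars: mean of 3 libraries, error bars: SD, number of genes in brackets). The ADP/ATP class is the largest in both groups (44.3% and 52.5%), and the di- and tricarboxylate class is smaller in MICT1 KO libraries (6.14% against 11.7%).

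By class, 5 of the 13 had lower calls only (di- and tricarboxylates, aspartate and glutamate, ornithine and basic amino acids, coenzyme A with cofactors and vitamins, and no settled substrate). In 2 the calls were higher only (ADP/ATP and uncoupling protein-like), in 3 they went both ways, and in 3 (phosphate, glycine with branched-chain amino acids, and pyrimidine nucleotides) no member passed. In 24 of the 37 genes tested the MICT1 KO values lay outside the Scr range, 14 below and 10 above, a share close to the background of 62.0% over all genes.

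Of the family members that carry other symbols, 4 were tested, of which 2 were lower and 1 was higher, beside 28.3% and 28.5% of all genes. Ucp1 was at 20.8, 24.1 and 30.5 in Scr cells compared with 1.91, 1.05 and 9.33 in MICT1 KO cells. It was called lower (log2 fold change -2.71, SE 0.64, adjusted p = 0.00112 from limma-trend). Ucp1 passed the filter on low values through its Scr libraries alone, since every MICT1 KO value lay under the minimum. These MICT1 KO values rest on few reads, so the size of the fall is uncertain. In Scr, Ucp1 stood at 0.938 ± 0.181 RPKM (SD, n = 3), under the 4 RPKM of the study's methods. Ucp2, by far the more abundant of the uncoupling protein genes here, fell from 4701 ± 85.9 to 3861 ± 326 (SD, n = 3; log2 fold change -0.29 with limma-trend, adjusted p = 3.83e-04). Mtch1, which encodes an outer membrane relative of the carriers, rose from 2275 ± 80.9 to 3390 ± 83.3 (SD, n = 3; log2 fold change 0.58 with limma-trend, adjusted p = 2.29e-08), whereas Mtch2 did not pass (-0.13). Ucp3 was below the filter and was not tested.

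The machinery that imports carriers had 6 of 13 genes (46.2%) lower and 0 higher, beside 28.3% and 28.5% of all genes, with a median log2 fold change of -0.16. The lower genes were those of the receptors Tomm70a (-0.53) and Tomm20 (-0.39), the channel Tomm40 (-0.28), the small chaperones of the intermembrane space Timm9 (-0.53) and Timm10 (-0.30), and Timm29 (-0.16), a subunit of the TIM22 complex. The channel gene of that complex, Timm22, did not pass (-0.14). Of 10 genes of other mitochondrial metabolite channels and carriers, 4 were lower (40.0%) and 2 higher (20%). The subunit genes of the mitochondrial pyruvate carrier fell, Mpc1 from 800.1 ± 52.4 to 342 ± 18.2 and Mpc2 from 1279.6 ± 79.5 to 386 ± 18.6 (SD, n = 3), with log2 fold changes of -1.22 and -1.73. The outer membrane channel gene Vdac1 rose (0.18) and Vdac3 was lower (-0.21), while Vdac2 did not pass (-0.05). Sfxn1, the gene of a serine transporter, fell (-0.69) and its relative Sfxn3 rose (0.81).

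**Figure D5:**
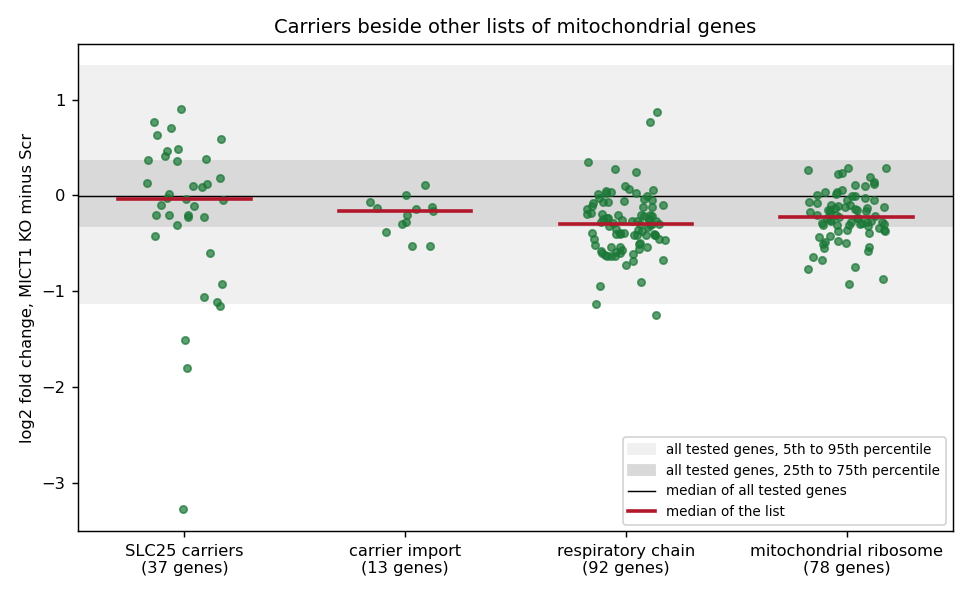
Log2 fold changes (MICT1 KO minus Scr) of the 37 tested carriers beside 13 genes of carrier import, 92 nuclear genes with respiratory chain or ATP synthase symbols (8 assembly factors and 1 pseudogene among them) and 78 mitochondrial ribosomal protein genes, each gene a point with a line at the median of its list, over bands for all tested genes. The carrier median (-0.04) is close to that of all genes and the other lists lie lower (-0.16, -0.30 and -0.22). The carriers spread most widely, but both ends are genes under 4 RPKM (Slc25a34 and Slc25a27). With a filter at 4 RPKM the carrier median was -0.10.

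Other nuclear genes of mitochondria were set beside the carriers, where the background over all genes is 28.3% lower and 28.5% higher. Of 92 tested genes with respiratory chain or ATP synthase symbols, 58 (63.0%) were lower and 3 (3.26%) higher, with log2 fold changes from -1.25 to 0.87 and a median of -0.30. These symbols take in 8 complex I assembly factors (Ndufaf1 to Ndufaf8) and the pseudogene Ndufs5-ps, and without them, a choice made after seeing the data, 54 of 83 (65.1%) were lower and 2 (2.41%) higher, and the median was again -0.30. Among the 78 genes of mitochondrial ribosomal proteins, 36 (46.2%) passed as lower and 3 (3.85%) as higher, from -0.92 to 0.29. The carriers ran from -3.28 to 0.91, both ends set by genes under 4 RPKM, with 32.4% lower and 16.2% higher. These are counts and medians, and no test between the lists was made.

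Other cell types were looked at through their markers. Of the progenitor genes Ly6a (log2 fold change 1.39) and Pdgfrb (0.48) were higher, and Dlk1 (-3.47) and Pdgfra (-0.19) lower, with a summed value of 4363 to 5011 in Scr and 4693 to 4893 in MICT1 KO libraries. Among macrophage genes Cd14 was higher (1.24) and Csf1r and Cd68 did not pass, with the 3 genes summing to 247 to 363 in Scr and 488 to 622 in MICT1 KO libraries. The endothelial gene Cdh5 was higher at values of 25.9 to 33.4 against 5.93 to 12.1, and the muscle genes Des and Acta1 did not pass. Cdh5 was low in both groups, at 0.126 ± 0.043 RPKM in Scr and 0.436 ± 0.0525 RPKM in MICT1 KO libraries (SD, n = 3). Only 3 of the 7 macrophage genes looked for, 1 of the 4 endothelial genes and 2 of the 5 muscle genes had values here. Genes at 0 in any library have none. What these markers contribute to the carrier values was not tested.

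Exons of 9 of the carriers overlap those of a gene on the opposite strand in GENCODE, among them Slc25a11 (189 bases shared with Rnf167), Slc25a25 (379 with Naif1), Slc25a26 (144 with Lrig1), Slc25a10 (228 with Gm11788) and Slc25a37 (381 with Gm31748). The methods describe strand-specific libraries, but whether counting used the strand is not given in the sources used here, so a part of these values could come from the partner.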

How the data were processed

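RNA-seq of 6 libraries was analysed, 3 from Scr and 3 from MICT1 KO cells, grouped by the sample titles. According to the methods, strand-specific libraries were sequenced in pairs and aligned with Partek software to NCBI38/mm10, and the submitters' processing notes also name STAR. For each gene and library the authors deposited a normalized signal. Of the signals under 20, 88.8% to 90.3% per library equalled whole multiples (tolerance 0.01) of a step per library, too few to recover counts, so no count test was run. Genes at 0 in any library are not in the table. How reads were counted is not given in the sources used here.

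The comparison used limma 3.58.1 in R 4.3.3 (limma-trend, pseudocount 1, filter at a value of 10 in 3 libraries, adjusted p under 0.05). RPKM used the sum of a library's values and the exon length of GENCODE vM21, found for 13148 of 13283 symbols. Positions are RefSeq's on GRCm38, the build of the files. Motifs were searched in RefSeq promoter windows, without the carriers on chromosome 18. Carriers called, those above 50 RPKM and their paralogs were named with every value, and the others by range or fold change. The values of 1 carrier that did not pass are not reported here, though it is in every count. Members, substrate classes and lists were chosen with earlier results of these data known. With 3 libraries against 3 an exact test cannot give p below 0.1. Whether replicates were separate cultures is not stated in the labels, and p-values measure the spread between these libraries. Alternatives were other scalings, pseudocounts and filters, limma-voom, a replicate block and leaving out each library.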

Additional observations from a re-analysis of the deposited data

How the results depend on the processing

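The counts of lower and higher carriers stayed within 1.5 times of the reported 12 and 6 under every alternative tried, which were library sum scaling, trimmed-mean (TMM) scaling, pseudocounts of 0.5 and 5, no filter on low values, a filter at 4 RPKM, limma-voom, the replicate number as a block, and each library left out. They ranged from 9 to 13 lower and from 4 to 6 higher, and the lowest counts came with the filter at 4 RPKM, which leaves 24 carriers. Over all genes the counts ran from 2853 to 3561 lower and from 2623 to 3605 higher. With each library left out there were 11 to 13 lower and 5 to 6 higher carriers, and the median log2 fold change ran from -0.0757 to -0.034. With the filter at 4 RPKM the median was -0.10, beside -0.02 over all genes. This move, and that without MICT1 KO replicate 1 (-0.0757), exceeded the pooled SD of the median between libraries (0.0345). The replicate block gave 13 lower and 6 higher carriers, adding Slc25a11 (adjusted p = 0.0459 from limma-trend). For libraries with the same number, the correlations of their deviations from the group means were -0.024, -0.015 and 0.064. Those between different numbers ran from -0.043 to 0.056. The labels do not state whether libraries with the same number share a culture or a day, and these values cannot tell it.

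Of the 18 carriers called, 15 kept their call and direction in every setting in which they could be tested. The exceptions were Slc25a32, Slc25a27 and Slc25a30, each lost when certain single libraries were left out. Of 19 carriers not called, 6 passed in at least 1 setting. Changes of sign occurred among carriers that did not pass, and only where a library was left out: Slc25a44 (0.0079), Slc25a13 (-0.0519, -0.12 and -0.0202, with a range from -0.12 to 0.196), Slc25a33 (0.0132 and 0.0414, range -0.0761 to 0.0414), Slc25a53 (-0.0116, range -0.0116 to 0.606), Slc25a38 (-0.126 and -0.0097, range -0.126 to 0.40) and Slc25a36 (0.0018). No scaling turned the direction of a carrier. Of the carriers, 1 (Slc25a2) was too low to be tested.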
